A study of Homo sapiens with 44 samples.

Results

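The genes of glycolysis and of the hypoxia response were followed through 2 RNA sequencing experiments in HCT116 cells, which derive from a human colon carcinoma. The set holds 38 genes. They encode glucose and lactate transporters, the enzymes from hexokinase to lactate dehydrogenase, kinases that inhibit pyruvate dehydrogenase, and textbook targets of hypoxia-inducible factors. The genes were chosen by name, with earlier results of these data known. All 38 were found among the 18797 genes of the GAS41 experiment and among the 21159 genes of the doxorubicin experiment. In each experiment 37 of them had enough reads to be tested, which meant at least 10 reads in at least 3 libraries. The exception in both was CA9, a carbonic anhydrase on the cell surface and a classical marker of hypoxia. Its counts were 0, 1 and 0 reads in the mut rescue libraries, 3, 0 and 1 in wt rescue, 0, 0 and 2 in GAS41-KO and 8, 4 and 3 in WT. With doxorubicin CA9 had 2, 3 and 9 reads, against 10, 9 and 7 with DMSO, so no library of either experiment held more than a trace of it.

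All groups were HCT116 cells described as p53+/+ and grown in RPMI-1640 medium, and the labels name no change of oxygen or glucose. The mut rescue cells were GAS41 knockout cells that stably expressed GFP-Flag-GAS41 carrying the Y74A/W93A mutations, and the wt rescue cells were knockout cells that stably expressed GFP-Flag-GAS41 without them. The GAS41-KO cells had the knockout alone, and WT cells were the wild type of the line. GAS41 is the chromatin protein encoded by YEATS4, whose YEATS domain reads acylated histone tails. In the other experiment Dox cells received 500 nM doxorubicin, a drug that traps topoisomerase II on DNA, and DMSO cells received the solvent. Each group had 3 libraries. The labels call them biological replicates without saying whether they came from separate cultures or clones, so the p-values may measure only the spread between libraries of 1 culture. The length of the doxorubicin exposure was not given in the sources used here, and 26 further samples (ChIP and input) were not analysed here.

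Glycolysis turns glucose into pyruvate in the cytosol, and most enzymes of the path exist as several isozymes encoded by different genes. When oxygen is scarce, prolyl hydroxylases no longer mark the alpha subunits of hypoxia-inducible factors for destruction. The factors then pair with ARNT and raise glucose transporters, glycolytic enzymes, kinases that inhibit pyruvate dehydrogenase, and genes for vessel growth and mitophagy. Many cancer cells, colon cancer cells among them, run glycolysis at a high rate with oxygen present, and MYC acts on several of the same genes.

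Levels are given as normalized reads, the reads of a gene divided by the size factor of its library. They were not scaled to gene length, so levels of different genes are not compared. Log2 changes are on the deposited variance-stabilized scale, on which low genes are compressed, and adjusted p-values are from limma with Benjamini-Hochberg adjustment over all genes tested. A gene is said to have risen or fallen where that p was below 0.05. Library depth was 16857982 to 18546135 reads with GAS41 and 17442035 to 18894312 reads with doxorubicin. In a bulk sample fewer cells with a transcript and less of it per cell cannot be told apart.

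YEATS4 was checked first. It had 2550, 2360 and 2540 normalized reads in mut rescue, 2890, 3500 and 3370 in wt rescue, 386, 337 and 325 in GAS41-KO and 625, 608 and 621 in WT. Transcript remained in the knockout at 0.565 of the WT level (adjusted p = 2.09e-06), and both rescue lines lay above WT. Doxorubicin lowered it as well, to 173, 193 and 188 normalized reads against 694, 612 and 698 with DMSO (adjusted p = 3.58e-09). Of 6 tested colon epithelium markers 2 rose and 2 fell in GAS41-KO over WT, where 26% of all genes rose and 26.6% fell. Their list of 9 summed to 65729 to 79902 normalized reads in mut rescue, 76415 to 89259 in wt rescue, 63456 to 65365 in GAS41-KO and 56794 to 60456 in WT. The keratin KRT8 averaged 36700 ± 189 in GAS41-KO and 27000 ± 1330 in WT (adjusted p = 0.00017). EPCAM and CDH1 fell in GAS41-KO: EPCAM averaged 1670 ± 162 normalized reads in mut rescue, 9010 ± 782 in wt rescue, 915 ± 17.0 in GAS41-KO and 7500 ± 348 in WT (SD, n = 3 each). The blood genes PTPRC and CD14 and the endothelial gene CDH5 had at most 6 reads in any library, and LYZ, which macrophages share with other tissues, made up most of the blood list. That list summed to 28.1 to 37.9 in mut rescue, 16.5 to 24.9 in wt rescue, 46.5 to 60.9 in GAS41-KO and 17.9 to 27.5 in WT, and LYZ was 2.34-fold higher in GAS41-KO than in WT (adjusted p = 0.000159). The summed level of the 3 fibroblast markers of the GAS41 table, nearly all of it COL1A1, was 262 to 335 in mut rescue, 160 to 179 in wt rescue, 240 to 311 in GAS41-KO and 270 to 308 in WT, and COL3A1 averaged 18.6 ± 8.38 in GAS41-KO and 0.633 ± 0.548 in WT (adjusted p = 1.43e-05). The part of these marker differences in the results was not tested.

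The sequence that the hypoxia-inducible factors recognise has ACGTG or GCGTG at its core. Only the ACGTG form was searched for, and it is called the core below. The E-box CACGTG, which MYC and its relatives recognise, contains that core on both strands. Both were searched for on both strands of the promoter windows of RefSeq (build GRCh38.p14), which run from 250 bases before to 50 bases after each transcript start. Of the 38 genes 33 had windows, 60 in all, and NDRG1, SLC16A1, BNIP3L, VEGFA and SLC2A3 had none. ACGTG stood in 24 of the 60 windows (40.0%), against 21.4% of all 35116 windows, and CACGTG in 8 (13.3%), against 7.26%. Counted by gene, 20 of 33 had the core in at least 1 window and 8 had the E-box, but no count by gene was made over all promoters. Genes with several windows had more chances of a match, and windows of the same gene can overlap. A match describes letters, not binding. One window of each of 4 genes, chosen from those described below, is printed 5′ to 3′ along the strand of the gene. Capitals mark each CACGTG, and each ACGTG or its reverse complement outside an E-box. The printed HK2 window lies at chr2:74834920-74835219 on the plus strand, that of LDHA at chr11:18394313-18394612 on the plus strand, that of ALDOC at chr17:28576846-28577145 on the minus strand and that of SLC2A1 at chr1:42958819-42959118 on the minus strand.
HK2: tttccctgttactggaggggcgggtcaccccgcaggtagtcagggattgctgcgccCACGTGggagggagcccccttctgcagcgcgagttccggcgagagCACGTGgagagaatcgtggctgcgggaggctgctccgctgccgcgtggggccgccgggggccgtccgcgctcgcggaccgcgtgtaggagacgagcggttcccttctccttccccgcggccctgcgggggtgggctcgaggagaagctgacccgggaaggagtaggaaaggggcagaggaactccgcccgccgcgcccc
LDHA: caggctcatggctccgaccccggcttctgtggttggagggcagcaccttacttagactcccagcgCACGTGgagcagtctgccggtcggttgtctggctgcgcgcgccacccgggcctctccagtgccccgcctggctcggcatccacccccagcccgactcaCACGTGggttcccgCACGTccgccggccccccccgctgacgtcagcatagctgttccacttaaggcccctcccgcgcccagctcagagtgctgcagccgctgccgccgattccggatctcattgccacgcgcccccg
ALDOC: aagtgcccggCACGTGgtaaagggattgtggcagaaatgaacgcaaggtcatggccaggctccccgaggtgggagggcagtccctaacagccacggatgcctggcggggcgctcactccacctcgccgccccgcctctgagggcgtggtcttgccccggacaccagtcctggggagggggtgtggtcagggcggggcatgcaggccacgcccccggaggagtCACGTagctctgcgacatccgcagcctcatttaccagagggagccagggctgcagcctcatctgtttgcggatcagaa
SLC2A1: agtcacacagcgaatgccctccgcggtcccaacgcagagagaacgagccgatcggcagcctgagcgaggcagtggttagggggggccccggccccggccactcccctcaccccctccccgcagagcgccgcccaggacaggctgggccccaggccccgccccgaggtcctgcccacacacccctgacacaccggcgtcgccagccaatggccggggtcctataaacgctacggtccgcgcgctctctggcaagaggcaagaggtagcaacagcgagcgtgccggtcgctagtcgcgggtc
The printed HK2 window holds 2 E-boxes, the LDHA window 2 E-boxes and 1 further core, and the ALDOC window 1 of each. HK2 and LDHA each had a second window, not printed: that of HK2 holds 2 cores and no E-box, and that of LDHA neither motif. The windows with E-boxes are the ones shown, so the 4 do not stand for the set, in which 8 of 33 genes had an E-box. The window of ADM, a gene with larger changes than LDHA in the knockout, holds neither motif and is not printed. The SLC2A1 window holds neither motif, which says only that these letters are not in it. Both it and the ADM window hold GCGTG, the form that was not searched for.

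**Figure D1:**
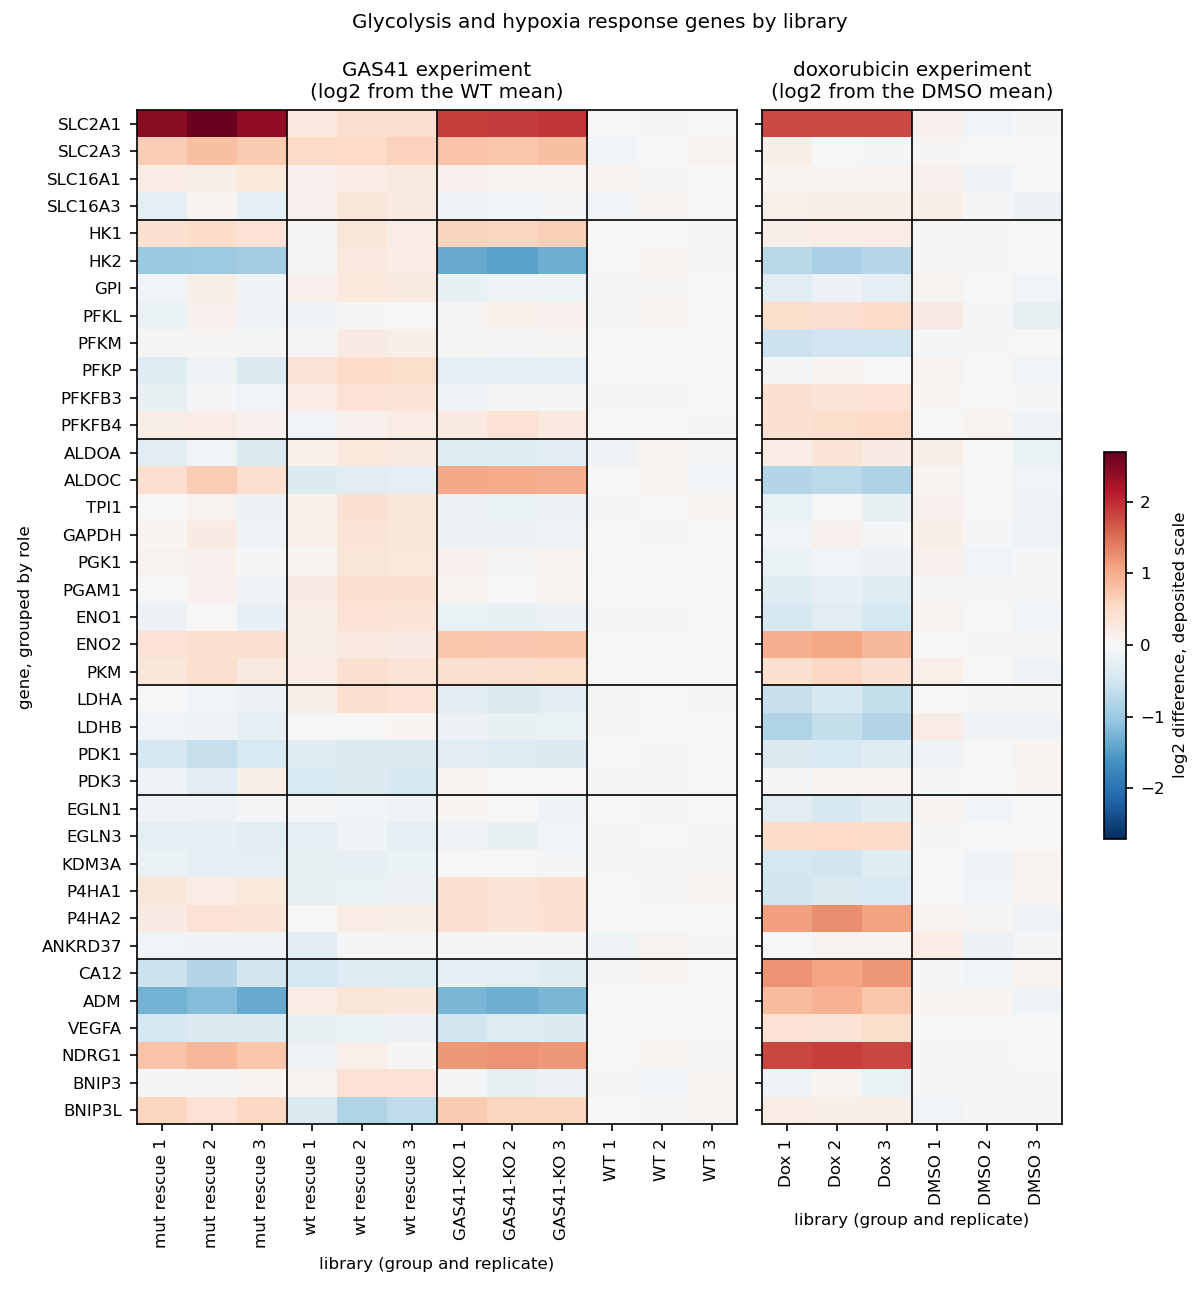
Each row is 1 of the 37 tested genes, grouped by role, and each column 1 library; colour gives the log2 difference of its deposited value from the WT mean (12 libraries of the GAS41 experiment) or the DMSO mean (6 libraries of the doxorubicin experiment). SLC2A1 reaches 2.65 in mut rescue replicate 2, HK2 reaches -1.45 in a GAS41-KO library, and most other rows are pale.

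The knockout of GAS41 went with changes in both directions. In GAS41-KO over WT 11 of the 37 genes rose and 10 fell, while 26% and 26.6% of all 14505 genes tested did so, 52.6% in all. The median log2 change was -0.02 over the 37 genes and -0.01 over all genes. The groups did not overlap for 28 of the 37 genes, against 69% of all genes. At a fold of at least 2 there were 4 that rose (SLC2A1, SLC2A3, ALDOC and NDRG1) and 2 that fell (HK2 and ADM), against 6.53% and 3.44% of all genes. When only the 6 libraries of these groups were fitted, 14 of the 37 rose and 15 fell, and 4727 and 5009 of all genes did so. The added calls were GPI, PFKL, TPI1, GAPDH, PGK1, SLC16A1, SLC16A3 and BNIP3, with log2 changes from -0.16 to 0.09. Each of the 6 genes past a fold of 2 had other members of its own role that moved the other way or did not pass the test.

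At the entry of glucose, SLC2A1, which encodes the widespread glucose transporter GLUT1, had 4760, 4870 and 5010 normalized reads in GAS41-KO, against 1180, 1240 and 1180 in WT. Every knockout library lay far above every WT library, a 4.07-fold difference (log2 change 1.90 ± 0.07 SE, adjusted p = 3.06e-12). SLC2A3, which encodes the high-affinity neuronal transporter GLUT3, had 112, 111 and 120 in GAS41-KO, against 24.8, 28.3 and 37.0 in WT. It also rose without overlap, by 3.8-fold in normalized reads and by 0.77 on the compressed log2 scale (adjusted p = 3.90e-08). The lactate transporters did not pass the test, but did when only these 6 libraries were fitted (adjusted p = 0.0428 for SLC16A1 and 0.039 for SLC16A3). SLC16A1 (MCT1) averaged 3880 ± 80.9 normalized reads in GAS41-KO and 3660 ± 144 in WT, and SLC16A3 (MCT4), the HIF target of the pair, 6150 ± 104 in GAS41-KO and 6520 ± 334 in WT (SD, n = 3 each).

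Hexokinase, which traps glucose in the cell, changed its isozymes. HK2, the inducible hexokinase of muscle and tumours, had 719, 670 and 755 normalized reads in GAS41-KO, against 2060, 2180 and 2030 in WT. The highest knockout library was still well under the lowest WT library, and HK2 stood at 0.342 of its WT level (log2 change -1.38 ± 0.07, adjusted p = 2.19e-10). HK1, the housekeeping isozyme, had 2990, 2930 and 3080 in GAS41-KO, against 1890, 1900 and 1950 in WT. It rose without overlap by 1.57-fold (adjusted p = 1.84e-06). Within a library the log2 ratio of HK2 to HK1 reads was 2.2 ± 0.05 lower in GAS41-KO than in WT (SD, n = 3), a pair picked after its values were seen and given without a test.

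The later steps of the upper path moved less. Of the genes for phosphofructokinase, PFKP (the platelet type) fell by 0.25 on the log2 scale (adjusted p = 0.00718), while PFKL and PFKM had changes of 0.09 and 0.02 and did not pass. PFKFB4, which makes the activator fructose 2,6-bisphosphate, rose by 0.30 (adjusted p = 0.00178), and its relative PFKFB3 had -0.08. GPI, which interconverts the hexose phosphates, had -0.16.

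Among the 9 genes from aldolase to pyruvate kinase 3 rose, 2 fell and 4 did not pass, where 26% of all genes rose and 26.6% fell. ALDOC, the brain aldolase, had 1040, 1030 and 1010 normalized reads in GAS41-KO, against 447, 464 and 413 in WT. Knockout libraries were all above WT, by 2.33-fold (log2 change 1.01 ± 0.07, adjusted p = 6.21e-09). ALDOA, the muscle aldolase that most cells use, instead fell by 0.31 (adjusted p = 0.00292). For enolase too the isozymes differed. ENO2, the neuronal enolase, had 2130, 2090 and 2130 in GAS41-KO, against 1220, 1190 and 1210 in WT, and rose by 1.75-fold (adjusted p = 8.28e-09). ENO1, the ubiquitous enolase, averaged 43300 ± 549 in GAS41-KO and 49100 ± 1440 in WT (SD, n = 3 each), a fall of 0.18 with an adjusted p of 0.0421 that rose above 0.05 on leaving out any 1 of the 6 libraries. PKM, the last enzyme of the path, rose by 0.45 (adjusted p = 5.05e-05). TPI1, GAPDH, PGK1 and PGAM1 had log2 changes between -0.16 and 0.08 and did not pass. Several of these abundant genes have processed pseudogenes, and how reads that match both were counted was not given in the sources used here.

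Of the 4 genes that decide the fate of pyruvate none rose and 3 fell, where 26% and 26.6% of all genes did. LDHA, the lactate dehydrogenase subunit that favours lactate, had 17700, 17100 and 17800 normalized reads in GAS41-KO, against 22500, 21800 and 21600 in WT, without overlap (log2 change -0.32 ± 0.07, adjusted p = 0.000999). LDHB, its partner subunit, fell by 0.18 (adjusted p = 0.0118), and without WT replicate 1 its adjusted p was 0.0541. PDK1, the HIF-induced kinase that shuts pyruvate dehydrogenase, averaged 204 ± 9.26 in GAS41-KO and 291 ± 7.37 in WT (SD, n = 3 each) and fell by 0.34 (adjusted p = 0.000195). PDK3 had a change of 0.01.

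**Figure D2:**
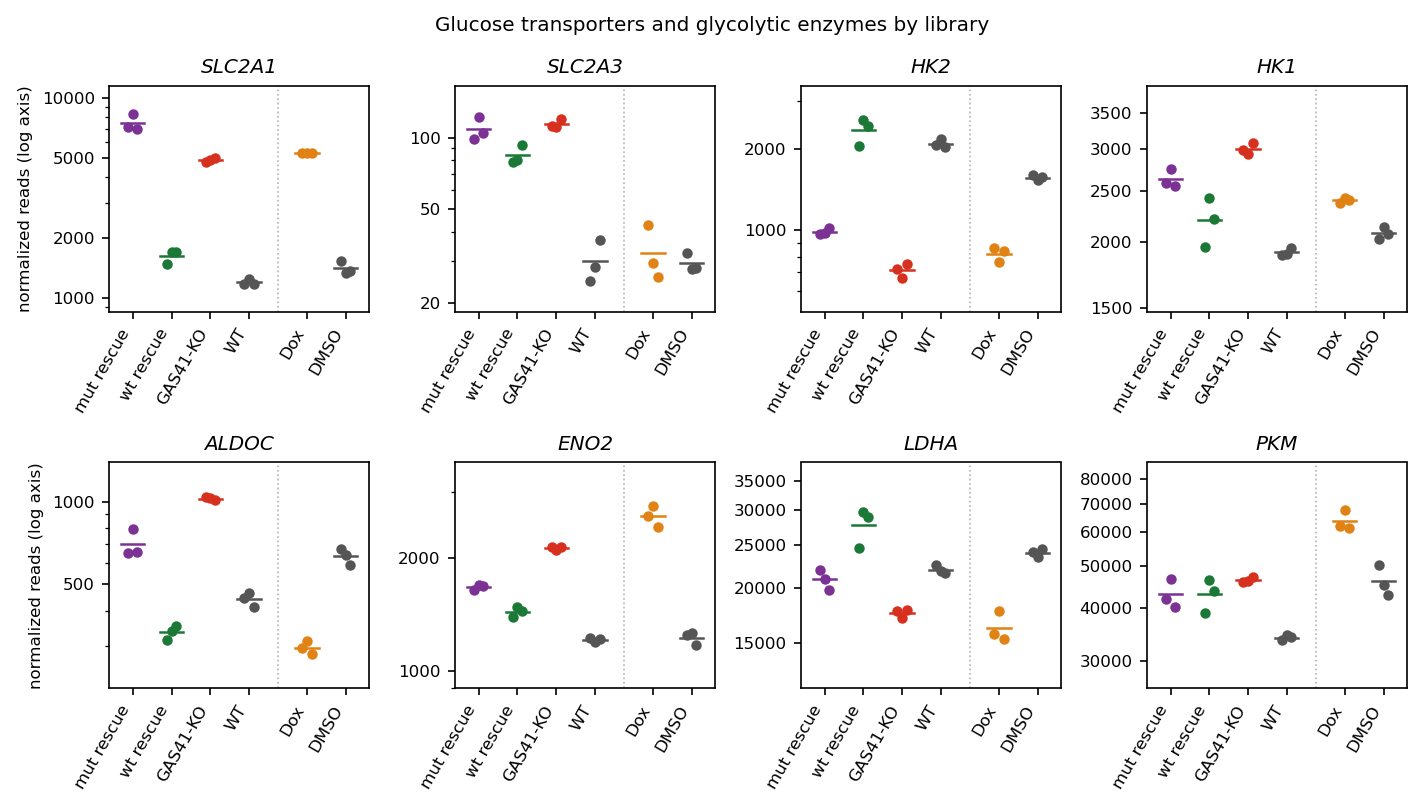
Normalized reads (log axis, its own range in each panel) of 8 glycolysis genes in each of the 18 libraries; points are libraries and bars group means, with the GAS41 experiment left of the dotted line and doxorubicin right of it. SLC2A1 averages 4880 in GAS41-KO against 1200 in WT, and HK2 averages 715 against 2090.

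The hypoxia genes outside the path were no more uniform. ADM, which encodes the vessel-relaxing peptide adrenomedullin, had 146, 132 and 145 normalized reads in GAS41-KO, against 508, 512 and 514 in WT. It fell without overlap to 0.275 of its WT level (log2 change -1.26 ± 0.06, adjusted p = 4.41e-11). VEGFA, the vessel growth factor, had 650, 730 and 720 in GAS41-KO, against 975, 957 and 976 in WT, and fell by 0.40 (adjusted p = 1.81e-05). CA12, a second surface carbonic anhydrase, averaged 127 ± 8.47 in GAS41-KO and 176 ± 9.97 in WT (SD, n = 3 each) and fell by 0.27 (adjusted p = 0.00545). NDRG1, a stress gene induced by hypoxia and by several other signals, went the other way. It had 2700, 2770 and 2700 normalized reads in GAS41-KO, against 1100, 1150 and 1080 in WT, and rose by 2.45-fold with no overlap (log2 change 1.19 ± 0.07, adjusted p = 8.44e-10). Of the mitophagy receptors BNIP3L rose by 0.62 (adjusted p = 3.28e-05), while BNIP3, the better known HIF target, had -0.13 and did not pass.

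Among the 6 oxygen-sensing and feedback genes only the collagen prolyl hydroxylases passed the test, as 52.6% of all genes did. P4HA1 rose by 0.42 (adjusted p = 1.81e-05) and P4HA2 by 0.41 (adjusted p = 7.84e-05). The HIF prolyl hydroxylase genes EGLN1 and EGLN3, which HIF induces in a feedback loop, had changes of -0.01 and -0.13. EGLN3 averaged 87.0 ± 9.51 normalized reads in GAS41-KO and 104 ± 5.57 in WT (SD, n = 3 each). KDM3A, a histone demethylase, had -0.02. ANKRD37 had only 12.4 to 21.7 normalized reads in the libraries of both groups, so its counting error is large.

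Of the genes for the 2 main HIF alpha subunits EPAS1 passed the test and HIF1A did not, and the difference between them was not tested. HIF1A had 2940, 2820 and 2700 normalized reads in GAS41-KO, against 2600, 2460 and 2520 in WT (log2 change 0.15, adjusted p = 0.363, and 0.000404 when only these 6 libraries were fitted). EPAS1, which encodes HIF-2 alpha, had 300.0, 302 and 303 in GAS41-KO, against 836, 858 and 826 in WT, and fell to 0.359 of that level (adjusted p = 7.47e-10). Of 15 tested HIF pathway regulators 1 rose and 3 fell, where 26% of all genes rose and 26.6% fell. The riser was HIF1AN, the asparagine hydroxylase that blunts HIF activity, at a log2 change of 0.31, and CUL2, a scaffold of the VHL ligase, was among those that fell, by 0.38. ARNT, VHL and MXI1 had 0.11, 0.10 and -0.01 and did not pass, though ARNT and VHL did with only these 6 libraries fitted (adjusted p = 0.0296 and 0.0224). MYC fell by 0.66 (adjusted p = 4.49e-06), with 3630 ± 50.5 normalized reads in GAS41-KO and 5810 ± 96.1 in WT (SD, n = 3 each). HIF activity is set mostly by protein stability, which these data do not measure.

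Of 35 other tested HIF target genes 15 rose and 10 fell, with a median log2 change of 0.07, where 26% of all genes rose and 26.6% fell. The chemokine receptor CXCR4 had 499, 536 and 504 normalized reads in GAS41-KO, against 0, 0.944 and 4.74 in WT. IGFBP3, a binding protein of insulin-like growth factors, had 116, 97 and 95.1 in GAS41-KO, against 5.73, 12.3 and 0 in WT. STC2, a secreted glycoprotein, fell to 0.343 of its WT level (adjusted p = 1.86e-11). Of 30 other glycolysis and gluconeogenesis genes 9 rose and 14 fell. HKDC1, a further hexokinase gene, fell to 18.3 ± 2.50 normalized reads in GAS41-KO, against 144 ± 18.4 in WT, while BSG, the chaperone of the lactate transporters, rose by 1.89-fold (adjusted p = 6.59e-07). Of 12 genes for the entry of pyruvate into mitochondria 3 rose and 6 fell. PDK4 rose by 7.37-fold (adjusted p = 1.06e-10), with 294, 302 and 293 normalized reads in GAS41-KO against 51.6, 40.6 and 28.5 in WT. DLAT, the acetyltransferase subunit of pyruvate dehydrogenase, and PDP1, the phosphatase that reopens it, fell by 0.72 and 0.70. Of 8 pentose phosphate genes 2 rose and 2 fell.

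**Figure D3:**
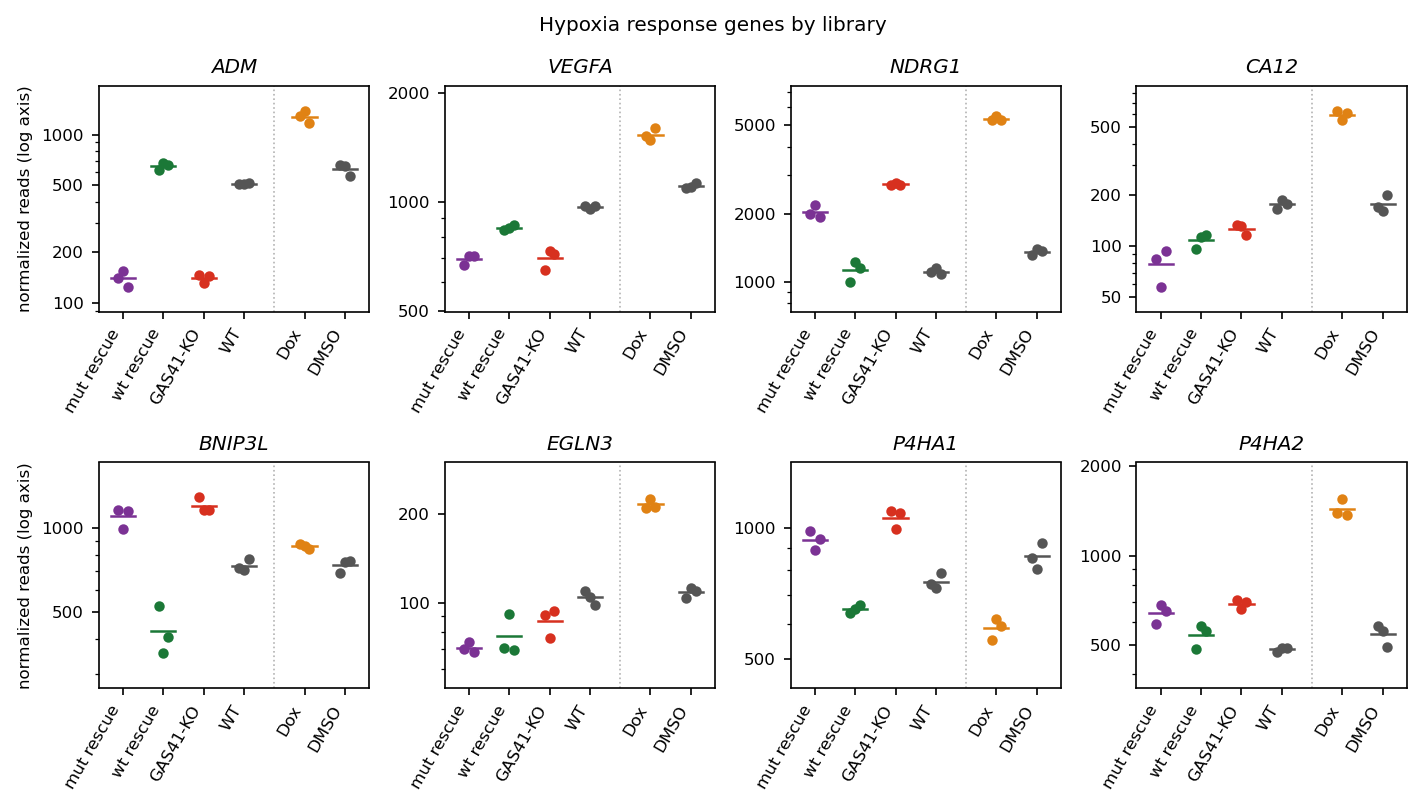
Normalized reads (log axis, its own range in each panel) of 8 hypoxia response genes in each of the 18 libraries; points are libraries and bars group means, with the GAS41 experiment left of the dotted line and doxorubicin right of it. ADM averages 141 in GAS41-KO against 511 in WT but 1280 with doxorubicin against 626 with DMSO.

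The rescue lines ask whether returned GAS41, with or without its mutations, brings these levels back. The rescue libraries were uneven. Mut rescue replicate 2 was the highest of its group for 24 of the 37 genes. Wt rescue replicate 1 was the lowest of its group for 30 of the 37 genes. The median log2 difference from WT over the 37 genes was 0.03 in replicate 1, 0.26 in replicate 2 and 0.20 in replicate 3. Over 49 genes with long transcripts it was -0.10, -0.40 and -0.35 in the same order, and over 40 ribosomal protein genes 0.14, 0.32 and 0.35, so the long transcripts lay furthest below WT in replicates 2 and 3, where the ribosomal protein genes lay highest. Values with replicate 1 alone are given for some of the results that they change. Further calls changed with that library alone and are not all listed. The part of transcript length in them was not tested.

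In wt rescue over GAS41-KO 15 of the 37 genes rose and 12 fell, against 33% and 33% of all genes (66% together), with a median of -0.03. Past a fold of 2, HK2 and ADM rose and SLC2A1, ALDOC, NDRG1 and BNIP3L fell, against 3.92% and 11.6% of all genes. With quantile normalization 10 of the 37 rose and 13 fell, and 5040 and 4189 of all genes did so. With replicate 1 as the only wt rescue library the median over the 37 was -0.05. Of the 6 genes past a fold of 2 in the knockout, 5 were within 1.36-fold of WT in wt rescue, and SLC2A3 was not. Among these 5, SLC2A1 and ADM were still higher in wt rescue than in WT by the test, without overlap. WT had 1180, 1240 and 1180 normalized reads of SLC2A1 and 508, 512 and 514 of ADM. SLC2A1 had 1480, 1700 and 1700 normalized reads in wt rescue, against 4760, 4870 and 5010 in GAS41-KO, and fell to 0.334 of the knockout level (adjusted p = 6.22e-11). HK2 had 2040, 2550 and 2420 in wt rescue and rose by 3.27-fold over GAS41-KO (adjusted p = 6.41e-11). ADM had 616, 677 and 660 and rose by 4.62-fold (adjusted p = 3.56e-12). NDRG1 had 1000, 1230 and 1150 and fell to 0.414 of the knockout level (adjusted p = 9.15e-10).

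ALDOC, another of these 5, and BNIP3L were below WT. ALDOC had 315, 340.0 and 353 normalized reads in wt rescue, each of them under the lowest WT library at 413. It fell to 0.327 of its GAS41-KO level (adjusted p = 2.46e-10) and lay 0.29 below WT on the log2 scale (adjusted p = 0.003). BNIP3L had 526, 356 and 406 in wt rescue, against 722, 708 and 775 in WT, a log2 change of -0.63 (adjusted p = 9.64e-05). SLC2A3 stayed further above WT than SLC2A1 and ADM did. It had 78.7, 80.3 and 92.9 normalized reads in wt rescue, 0.735 of its knockout level, and stayed 2.79-fold over WT (adjusted p = 1.11e-05). PDK1 remained below WT: its log2 change was -0.03 over GAS41-KO and -0.37 over WT (adjusted p = 0.00025 over WT). EPAS1, at 711, 896 and 821 in wt rescue, was 2.68-fold over GAS41-KO and overlapped WT. MYC, at 6530, 7830 and 7550, exceeded WT by 0.32 (adjusted p = 0.00436, and 0.239 with replicate 1 alone). HIF1A fell to 2460, 1370 and 1580 in wt rescue (adjusted p = 0.000474 over GAS41-KO). Replicate 1 was near WT, and with it alone the adjusted p was 0.0527.

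Most genes of lower glycolysis were higher in wt rescue than in WT, by changes that depended on the wt rescue libraries and on the normalization. In wt rescue over WT 19 of the 37 genes rose and 9 fell, against 27.4% and 22.7% of all genes (50.1% together), with a median of 0.18 over the 37 and 0.01 over all genes. Of the 9 genes from aldolase to pyruvate kinase 8 rose and ALDOC fell, and the groups of all 9 did not overlap, against 57.3% of all genes. ENO1 had 55700, 64800 and 63500 normalized reads in wt rescue, against 47700, 50600 and 49000 in WT (log2 change 0.32, adjusted p = 0.00206). LDHA had 24700, 29800 and 28900, against 22500, 21800 and 21600 in WT (log2 change 0.33, adjusted p = 0.00128). With replicate 1 alone the changes were 0.18 for ENO1 and 0.17 for LDHA, and neither was called. All 8 lower glycolysis genes that rose lost their calls then, with changes from 0.06 (PGK1) to 0.22 (PGAM1). With quantile normalization 9 of the 37 rose and 9 fell, as did 3534 and 2747 of all genes. ENO1 (0), GAPDH (-0.05), ALDOA (-0.03), TPI1 (0.03), PGK1 (0.01) and PKM (0.08) were then not called. With replicate 1 alone the median over the 37 was 0.03.

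Few of the genes passed the test between mut rescue and the knockout. In mut rescue over GAS41-KO 3 of the 37 genes rose and 5 fell, against 5.92% and 9% of all genes (14.9% together), and none passed a fold of 2, as 0.276% and 1.09% of all genes did. SLC2A1 rose above its already high knockout level, to 7170, 8300 and 6980 normalized reads in mut rescue, a 1.53-fold step (log2 change 0.60 ± 0.07, adjusted p = 3.96e-05). HK2 had 967, 982 and 1020 in mut rescue, all above the knockout libraries (1.39-fold over their mean, log2 change 0.40, adjusted p = 0.00143). ALDOC fell by 0.48, NDRG1 by 0.39, CA12 by 0.35 and ENO2 by 0.32. The small changes of LDHA (0.25) and KDM3A (-0.21) lost the call without some single libraries, LDHA without mut rescue replicate 1 or any 1 GAS41-KO library and KDM3A without GAS41-KO replicate 1 or 2. ADM, at 140.0, 155 and 125 normalized reads, had a change of -0.01, and BNIP3L had -0.11. MYC rose by 0.50 (adjusted p = 0.000517) and EPAS1 had 0.19 (adjusted p = 0.0685, and 0.0496 with only these 6 libraries fitted).

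Set directly against wt rescue, mut rescue had 10 of the 37 genes higher and 17 lower, against 29.8% and 31.3% of all genes (61.1% together), with a median of -0.11 over the 37 and 0 over all genes. With wt rescue replicate 1 alone the median was -0.03 over the 37 and 0 over all genes. SLC2A1 was 4.6-fold higher in mut rescue (log2 change 2.1 ± 0.07, adjusted p = 1.79e-12), and BNIP3L (2.57-fold, adjusted p = 5.18e-08) and ALDOC (2.09-fold, adjusted p = 8.83e-08) were the others past a fold of 2, which 9.15% of all genes passed upward and 2.56% downward. ADM stood at 0.215 of its wt rescue level (adjusted p = 6.19e-12) and HK2 at 0.423 (adjusted p = 4.63e-09). All 5 kept their call with replicate 1 alone. Enzymes with smaller changes made up much of the lower calls, among them PFKP (-0.70), ALDOA (-0.48), ENO1 (-0.44) and LDHA (-0.41). GAPDH (-0.21, adjusted p = 0.0295), PGK1 (-0.17, adjusted p = 0.0461) and LDHB (-0.15, adjusted p = 0.0294) turned to 0.05, 0.03 and 0.03 with quantile normalization, and none of the 3 kept its call with wt rescue replicate 1 alone. GPI (-0.23) and CA12 (-0.23) were likewise not called with that library alone, and neither were TPI1, SLC2A3, SLC16A3 and BNIP3. In mut rescue over WT 11 of the 37 rose and 9 fell, against 23.5% and 22.9% of all genes (46.3% together). SLC2A1 was 6.24-fold over WT there, the largest fold of the set in any comparison, HK2 stood at 0.474 of WT and ADM at 0.273. The comparisons within the GAS41 experiment share their libraries, so their values are side by side and are not separate evidence.

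Of the 35 other HIF targets 9 rose and 16 fell in wt rescue over GAS41-KO, where 33% of all genes rose and 33% fell. In mut rescue over GAS41-KO 5 rose and 5 fell, where 5.92% and 9% of all genes did. In mut rescue over wt rescue 15 were higher and 9 lower, where 29.8% and 31.3% of all genes were. CXCR4 had 678, 581 and 629 normalized reads in mut rescue, against 9.96, 8.34 and 6.19 in wt rescue, with no overlap. PDK4, the kinase of pyruvate dehydrogenase that fasting induces, had 320.0, 258 and 299 in mut rescue, against 30.9, 20.9 and 26.8 in wt rescue, an 11.2-fold difference (adjusted p = 4.43e-11). STC2 stood at 0.41 of its wt rescue level in mut rescue (adjusted p = 2.73e-10) and was 3.1-fold higher in wt rescue than in GAS41-KO (adjusted p = 9.64e-12). RPIA, which makes ribose 5-phosphate in the pentose phosphate path, stood at 0.552 of wt rescue in mut rescue (adjusted p = 8.35e-08).

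**Figure D4:**
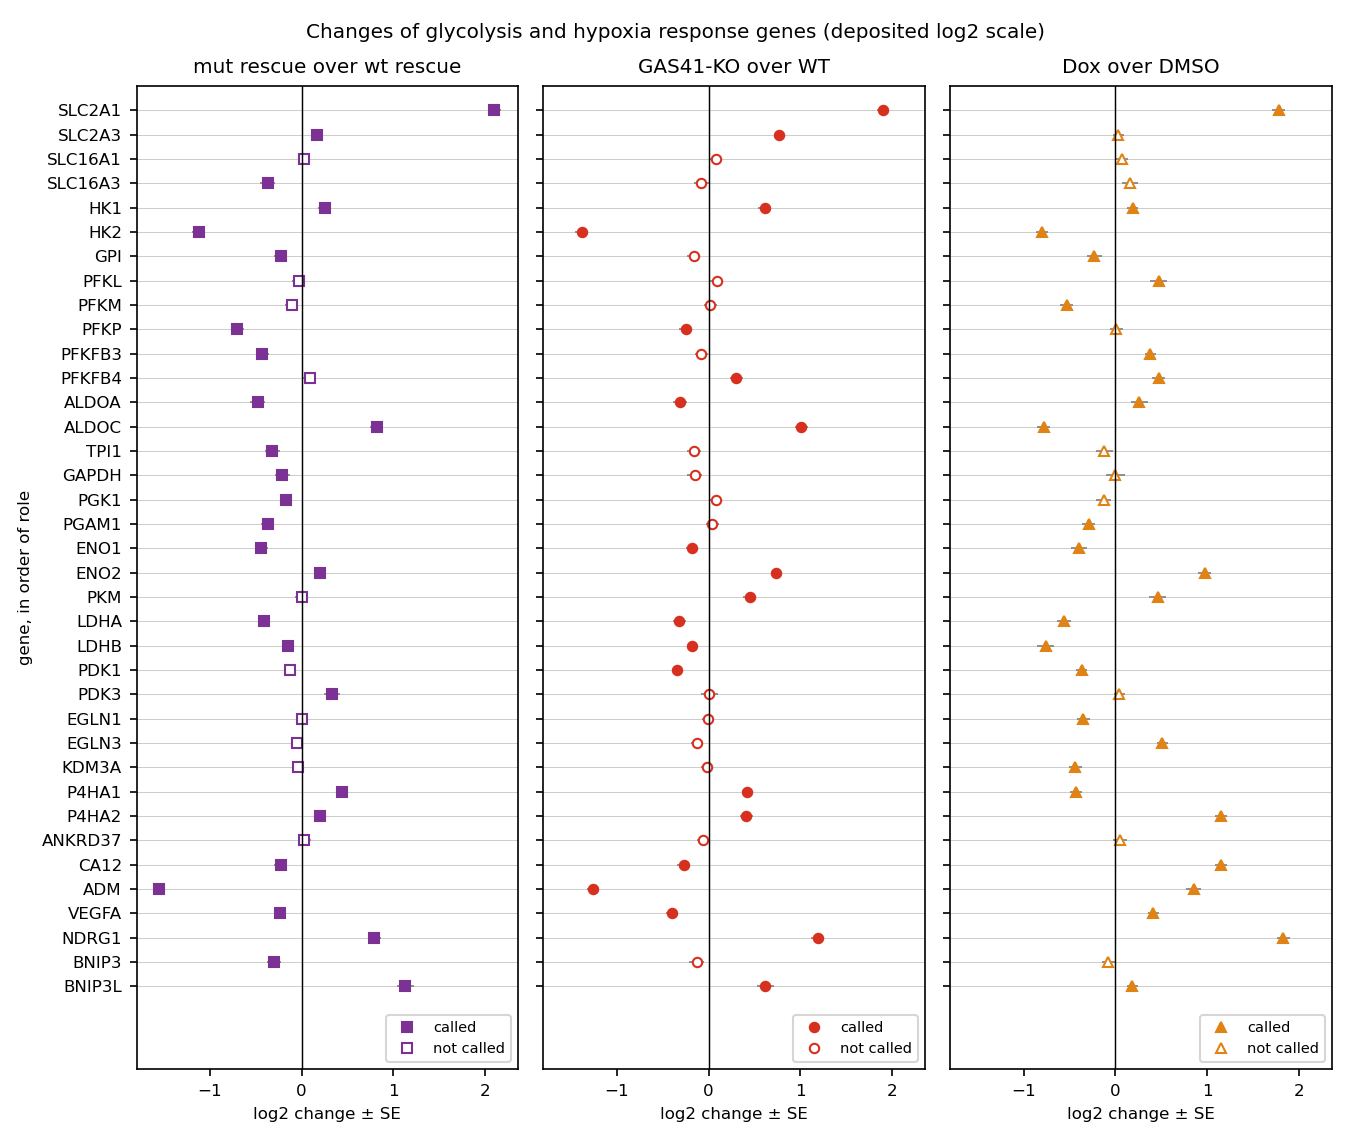
Log2 change with its standard error for the 37 genes in mut rescue over wt rescue, GAS41-KO over WT and Dox over DMSO; filled symbols passed the test at an adjusted p of 0.05 and open ones did not. SLC2A1 lies at 2.1, 1.90 and 1.78 in the 3 panels, HK2 at -1.12, -1.38 and -0.80, and ADM at -1.55, -1.26 and 0.85.

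With doxorubicin too the genes went both ways. In Dox over DMSO 15 of the 37 genes rose and 12 fell, against 32.3% and 33.4% of all 14195 genes tested (65.7% together), with a median log2 change of 0.04 over the 37 and -0.01 over all genes. With quantile normalization 18 of the 37 rose and 10 fell, and 4091 and 5450 of all genes did so. At a fold of at least 2 there were 6 that rose (SLC2A1, ENO2, CA12, ADM, NDRG1 and P4HA2) and 1 that fell (ALDOC), against 13.8% and 5.57% of all genes. Ribosomal protein genes were lower in the same libraries, 31 of 40 of them by the test, as were 20 of 49 genes with long transcripts, of which 11 were higher. Of 7 tested colon epithelium markers 6 rose and 1 fell, and their list of 10 summed to 145898 to 165213 normalized reads with doxorubicin and 72247 to 87997 with DMSO. Both tested endothelial markers rose, from a list that summed to 32.6 to 39.5 with doxorubicin and 15.3 to 25.8 with DMSO. Dox replicate 2 was the highest of its group for 24 of the 37 genes and DMSO replicate 1 for 23. The part of these shifts in the results was not tested.

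SLC2A1 had 5310, 5310 and 5310 normalized reads with doxorubicin, against 1530, 1330 and 1370 with DMSO. The doxorubicin libraries agreed to the digits shown, and the gene rose by 3.76-fold without overlap (log2 change 1.78 ± 0.07, adjusted p = 2.42e-10). SLC2A3, SLC16A1 and SLC16A3 had changes of 0.03, 0.07 and 0.16 and did not pass. With quantile normalization SLC16A1 was called at 0.17 (adjusted p = 0.0377) and SLC16A3 at 0.38 (adjusted p = 0.000324), and without DMSO replicate 1 SLC16A3 was called at 0.25 (adjusted p = 0.0075). HK2 had 860.0, 762 and 837 with doxorubicin, against 1600, 1530 and 1570 with DMSO, and fell to 0.523 (adjusted p = 2.49e-07), while HK1 rose by 0.19 (adjusted p = 0.0179, lost without Dox replicate 1 or 3). The phosphofructokinase genes diverged, with PFKL up by 0.47, PFKM down by 0.53 and PFKP at 0.01 (called at 0.16 with quantile normalization, adjusted p = 0.0341). Both bifunctional enzymes rose, PFKFB3 by 0.38 and PFKFB4 by 0.47.

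Further down, ALDOC fell and ENO2 rose. ALDOC had 293, 312 and 280.0 normalized reads with doxorubicin, against 675, 641 and 587 with DMSO, and fell to 0.466 (log2 change -0.78 ± 0.07, adjusted p = 2.99e-07). ENO2 had 2580, 2750 and 2420, against 1240, 1260 and 1170 with DMSO, and rose by 2.11-fold (adjusted p = 6.95e-08), while ENO1 fell by 0.40 (adjusted p = 0.00106). PGAM1 fell by 0.29 and PKM rose by 0.46, ALDOA rose by 0.26 with a call that 4 of the 6 libraries could each remove (Dox replicates 2 and 3 and DMSO replicates 2 and 3), and TPI1, GAPDH and PGK1 did not pass. The call of PGAM1 was lost with quantile normalization, at -0.03. LDHA had 15700, 17700 and 15300 with doxorubicin, against 24100, 23500 and 24500 with DMSO, and LDHB had 16900, 19100 and 17200, against 34300, 28100 and 28200. Both subunits fell without overlap, by 0.56 and 0.76, and PDK1 fell by 0.37 (adjusted p = 0.00017).

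Outside the path 5 of the 6 tested genes for pH, vessels and stress rose and none fell, where 32.3% of all genes rose and 33.4% fell. NDRG1 had 5270, 5490 and 5270 normalized reads with doxorubicin, against 1310, 1400 and 1370 with DMSO, a 3.93-fold rise (log2 change 1.83 ± 0.07, adjusted p = 1.02e-10). CA12 had 623, 552 and 607, against 169, 162 and 200.0 with DMSO, and rose by 3.36-fold (adjusted p = 1.09e-08). ADM had 1290, 1380 and 1170, against 662, 652 and 565, and rose by 2.04-fold (adjusted p = 5.35e-07). VEGFA rose by 0.41 and BNIP3L by 0.18, and BNIP3 had -0.08. The adjusted p of BNIP3L, 0.0216, went above 0.05 without Dox replicate 1 or 3 or DMSO replicate 1. The feedback and dioxygenase genes were divided: EGLN3 rose to 215 ± 7.94 normalized reads with doxorubicin, against 108 ± 4.33 with DMSO, and P4HA2 rose by 2.63-fold (adjusted p = 2.09e-08), whereas EGLN1, KDM3A and P4HA1 fell by 0.35, 0.44 and 0.43. HIF1A did not pass (0.19, adjusted p = 0.164, but 0.32 and 0.012 without DMSO replicate 3), ARNT, VHL and MXI1 had changes of -0.01, 0.05 and 0, and EPAS1 rose to 2580, 2210 and 2490 normalized reads, against 866, 761 and 834 with DMSO (2.96-fold, adjusted p = 4.97e-09). MYC had -0.17 at an adjusted p of 0.0499, which 8 of the 10 alternatives moved above 0.05.

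Of 35 other tested HIF targets 17 rose and 12 fell with doxorubicin, where 32.3% of all genes rose and 33.4% fell. The histone demethylase KDM4B rose by 4.07-fold (adjusted p = 2.82e-10) and the heme oxygenase HMOX1 by 3.14-fold (adjusted p = 1.84e-09). Of 29 other glycolysis and gluconeogenesis genes 12 rose and 10 fell. TIGAR, the p53-induced phosphatase that lowers fructose 2,6-bisphosphate, had 4370, 4470 and 4440 normalized reads with doxorubicin, against 437, 440.0 and 494 with DMSO, a 9.69-fold rise (adjusted p = 2.90e-12). PCK2, the mitochondrial carboxykinase, fell to 0.332 (adjusted p = 1.19e-08). Of 12 genes for pyruvate entry into mitochondria 2 rose and 7 fell, with a median of -0.24, and DLAT and PDP1 again led the falls at -1.12 and -0.97. Of 8 pentose phosphate genes 3 rose and 4 fell, among them TALDO1, the transaldolase, by 0.45.

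The knockout and doxorubicin experiments share no library, and the same 37 genes were tested in both. In both experiments 19 of the 37 genes were called, and 13 of them (68.4%) had the same direction, against 71.1% of the 5252 genes called in both experiments among all 13803 tested in both. Higher in both were SLC2A1, HK1, PFKFB4, ENO2, PKM, NDRG1, BNIP3L and P4HA2. Lower in both were HK2, ENO1, LDHA, LDHB and PDK1. ALDOC and P4HA1 were higher in the knockout and lower with doxorubicin, and ALDOA, CA12, ADM and VEGFA were the reverse. The regulator EPAS1 also had opposite signs, at -1.16 in GAS41-KO over WT and 1.37 in Dox over DMSO.

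Ratios of isozyme genes within a library put these shifts on 1 scale that a library's size factor does not touch. The pairs were chosen after values were seen and carry no test. The log2 ratio of HK2 to HK1, taken from the WT or DMSO mean, was -1.53 ± 0.08 in mut rescue, -0.04 ± 0.04 in wt rescue, -2.2 ± 0.05 in GAS41-KO and -1.15 ± 0.11 with doxorubicin (SD, n = 3 each). That of ENO2 to ENO1 was 0.59 ± 0.12 in mut rescue, -0.07 ± 0.08 in wt rescue, 0.99 ± 0.01 in GAS41-KO and 1.48 ± 0.04 with doxorubicin. The ratio of ALDOC to ALDOA was above its control in the knockout and below it with doxorubicin, at 0.93 ± 0.06 in mut rescue, -0.62 ± 0.05 in wt rescue, 1.53 ± 0.05 in GAS41-KO and -1.36 ± 0.04 with doxorubicin. LDHB to LDHA stayed within 0.33 of its controls in every group mean. Other pairs were also taken. P4HA2 to P4HA1 was 0.02 ± 0.02 in GAS41-KO and 1.94 ± 0.07 with doxorubicin. BNIP3L to BNIP3 was 0.87 ± 0.03 in GAS41-KO, -1.15 ± 0.49 in wt rescue and 0.32 ± 0.14 with doxorubicin. SLC16A3 to SLC16A1 was -0.17 ± 0.05 in GAS41-KO and 0.08 ± 0.03 with doxorubicin.

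**Figure D5:**
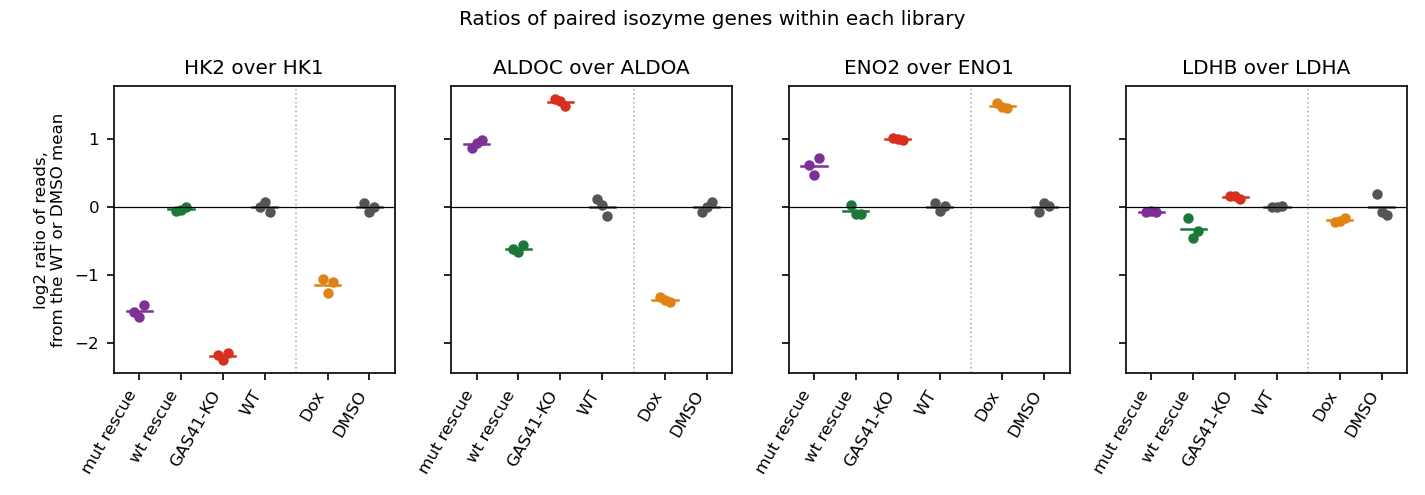
Log2 ratio of normalized reads of paired isozyme genes in each library, from the mean of WT (left of the dotted line) or DMSO (right of it); points are libraries and bars group means. HK2 over HK1 is lowest in GAS41-KO at -2.2, and ALDOC over ALDOA is 1.53 in GAS41-KO but -1.36 with doxorubicin.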

How the data were processed

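RNA-seq tables of 12 libraries (poly-A RNA on a BGISEQ-500) and of 6 libraries (Illumina HiSeq) were used, per the labels' protocols. Per the submitters' processing notes, which give no role or order, the authors used DESeq2, HTSeq, TopHat2 2.1.0, Bowtie 1.0.1, Trimmomatic 0.36 and CASAVA 1.4, with hg19 and mm9 as builds. The gene annotation is not given in the sources used here. Although named as counts, the deposited tables hold variance-stabilized log2 values. Inverting the scale gave whole reads to within 0.01 for 100% of values, with size factors equal to median-ratio factors. A step of 1 log2 over the floor equals 39.1 normalized reads (GAS41) or 52.6 (doxorubicin), so low genes have small log2 changes.

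Group differences in these log2 values came from limma 3.58.1 in R 4.3.3 (trended prior, Benjamini-Hochberg, threshold 0.05), over 14505 and 14195 genes with at least 10 reads in at least 3 libraries. All 12 GAS41 libraries entered 1 fit and the 6 others another. Because the deposited values are not counts, a test on the recovered reads (voom) was an alternative only. The procedure was tested on simulated data. Promoter windows are from RefSeq, and plots are from matplotlib 3.10.9 in Python 3.11.15.

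The members and lists were chosen with earlier results of these data known. All members may be named; YEATS4, HIF1A, EPAS1, ARNT, VHL, MYC and MXI1 are given whatever their values, and from each other list up to 3 called genes with the largest log2 change, of which some are not reported here. Correlations between the deviations of same-numbered libraries ran from -0.39 to 0.48. Both of these were in mut rescue over wt rescue, and -0.39 was also found in Dox over DMSO. In each comparison at least 1 of the 3 was at or under 0.1, which does not settle whether single libraries were paired. The main fit used no pairing.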

Additional observations from a re-analysis of the deposited data

How the results depend on the processing

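The alternatives were quantile normalization, no low-read filter, a block for the replicate number, voom on the recovered reads, a fit of only the libraries compared, leaving out each library and wt rescue replicate 1 alone. With wt rescue replicate 1 alone, 2328 genes were called in wt rescue over WT (7267 with all 3), 3 members rose there (19), and 9 members fell in mut rescue over wt rescue (17). Quantile normalization left 9 members higher in wt rescue over WT. A fit of only the GAS41-KO and WT libraries called 9736 genes there (7624 with all 12), with 14 members higher and 15 lower (11 and 10). Leaving out 1 library gave 1283 to 2374 called genes in mut rescue over GAS41-KO (2164 with all) and 2 to 4 members higher there. Small changes of abundant enzymes turned sign with quantile normalization: -0.05 for GAPDH and -0.04 for LDHB in wt rescue over GAS41-KO; 0.05, 0.03, 0.19 and 0.03 for GAPDH, PGK1, PKM and LDHB in mut rescue over wt rescue; and -0.01, -0.03, -0.05, 0 and -0.22 for GPI, ALDOA, GAPDH, ENO1 and LDHB in wt rescue over WT. Of these, PKM in mut rescue over wt rescue (limma adjusted p = 0.00142) and LDHB in wt rescue over WT (adjusted p = 0.0039) passed the test with the new sign. PKM in wt rescue over GAS41-KO, not called in the main fit, was called at -0.48 with quantile normalization (adjusted p = 1.18e-07). The cause was not tested. The replicate number pairs nothing in the labels, and with it as a block 7890 genes were called in GAS41-KO over WT (7624 without), with 11 members higher and 11 lower; no count moved by over 1.5 times. Depth limits CA9 and ANKRD37 most.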
